A study of Homo sapiens with 18 samples.

Results

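The genes described here are 36 genes of the hypoxia response and of glycolysis, chosen by name, of which 34 were measured among 22465 genes tested. A gene counted as measured where a transcript cluster of the array carried its symbol and no other. CA9 and SLC16A3 were not analysed here. The 34 are 16 enzymes of glycolysis, counting lactate dehydrogenase, and 18 other genes, of which 5 encode glucose transporters or regulators of glycolytic flux and 13 encode other targets of the hypoxia-inducible factors (HIF). Each of the 34 had 1 transcript cluster that carried its symbol alone, and rows shared with other symbols were not counted.

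The data come from J82 and RT112, established human bladder cancer cell lines, read on whole-transcript Affymetrix arrays after labelling of total RNA. The 4 groups were J82 cells given the CDK4 and CDK6 inhibitor palbociclib, which blocks entry into S phase, at its IC50, PBS-treated J82 controls, RT112 cells given palbociclib at its IC50, and PBS-treated RT112 controls, with 3 arrays in each. The arrays of a group are described as separate dishes of 1 line, so p-values measure the spread between dishes. The labels name neither a concentration, nor an exposure time, nor a low-oxygen condition, and all cells grew in the same medium. The question was which of these genes differed with the drug in each line and whether the lines differed in that.

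HIF is a transcription factor made of an oxygen-regulated alpha subunit and the partner ARNT. With oxygen present, prolyl hydroxylases of the EGLN family mark the alpha subunit for destruction through VHL, and without it HIF accumulates and binds a short core, ACGTG or GCGTG, near its targets. Those targets include growth factors, mitophagy receptors, glucose transporters and most steps of glycolysis, the pathway that splits glucose to pyruvate and lactate. Many are also controlled by other factors, among them MYC and the stress factor ATF4.

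Values are log2 intensities as deposited, and they reach 19.93, above the 16 where log2 of a 16-bit scan ends, so differences are given on that log2 scale and not as folds of signal. Medians of the 12 arrays over the genes tested lay between 5.31 and 5.61, the highest being that of RT112 palbociclib replicate 1. That array stood apart from its group, with a correlation of 0.972 to the least similar partner across the 67528 transcript clusters, against 0.984 or more in the other groups of these lines, and each RT112 result below is also given without it where that matters. Another line of the series, 5637, was not used by gene, since its transcript cluster rows correlated at r = 0.027 with those of J82, where J82 and RT112 correlated at 0.94. RT112 controls had high levels of the epithelial genes KRT5 (15.54) and CDH1 (13.51), whereas J82 controls read 6.35 and 5.68, nearer the array medians, with KRT18 at 14.38. The urothelial genes UPK2 and UPK3A stood at 6.32 and 4.42 in RT112 controls and at 5.86 and 4.22 in J82 controls. Among 16 measured urothelial and epithelial genes, 10 were higher and 2 lower in RT112 controls than in J82 controls (limma adjusted p under 0.05). Over all genes 12.8% were higher and 14.7% lower. The 16 log2 differences ran from -2.32 to 9.91. Of 12 markers of blood, vessel, stromal and liver cells, COL1A2 and PDGFRB were above 7 in J82 controls (7.74 and 7.21), and the other 10 lay between 3.32 and 5.67 there. All 12 lay between 3.33 and 5.65 in RT112 controls. Under palbociclib COL1A2 fell by 0.50 and PDGFRB by 1.00 in J82, and their part in the J82 results was not tested. Of 6 cell cycle genes, 6 fell in RT112 and 3 in J82, with CCNA2, the cyclin of S phase, at -3.79 in RT112 and -0.97 in J82. Over all genes 3.53% fell in RT112 and 2.78% in J82. The 6 differences ran from -1.40 to 0.73 in J82, where 2 were above 0. None of those 2 passed as higher, and 1 was higher at an unadjusted p under 0.05 (limma).

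Under palbociclib 8 of the 34 genes rose in J82 and 1 fell, and in RT112 10 rose and none fell. The test was limma over all 22465 genes with Benjamini-Hochberg adjustment and a threshold of 0.05. Over all genes it called 8.18% in J82 (5.4% higher and 2.78% lower) and 8.48% in RT112 (4.95% higher and 3.53% lower). The genes described here are brighter than most, 33 of the 34 lying above the median level of all genes. Among the 11232 genes above that median, 9.71% were higher and 5.05% lower in J82, and 8.75% were higher and 6.6% lower in RT112. At an unadjusted p under 0.05 limma had 9 of the 34 higher and 2 lower in J82, beside 13.1% and 6.31% of all genes, and 18 higher and 0 lower in RT112, beside 11.8% and 6.65%. The median log2 difference of the 34 genes was 0.12 in J82 and 0.34 in RT112, beside 0.04 and 0.04 over all genes. In 17 of the 34 genes all RT112 arrays with palbociclib lay above all RT112 controls, as did 14.5% of all genes, and in none did they lie below, as did 8.26% of all genes. In J82 the treated arrays lay above all controls in 10 of the 34 and below in 4, beside 16.1% and 7.82% of all genes. Either way, groups did not overlap in 23.9% of all genes in J82 and 22.8% in RT112. VEGFA, BNIP3L and KDM3A passed as higher in both lines, as 393 of all 22465 genes passed with 1 sign in both. Bulk arrays cannot tell a change in all cells from a change in the share of cells that carry the RNA.

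Without RT112 palbociclib replicate 1, 15 of the 34 genes rose in RT112, beside 13.2% of all genes called (8.09% higher and 5.11% lower). The 10 were all among these, and the others were HK1, PFKM, PFKP, SLC2A1 and P4HA1.

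**Figure D1:**
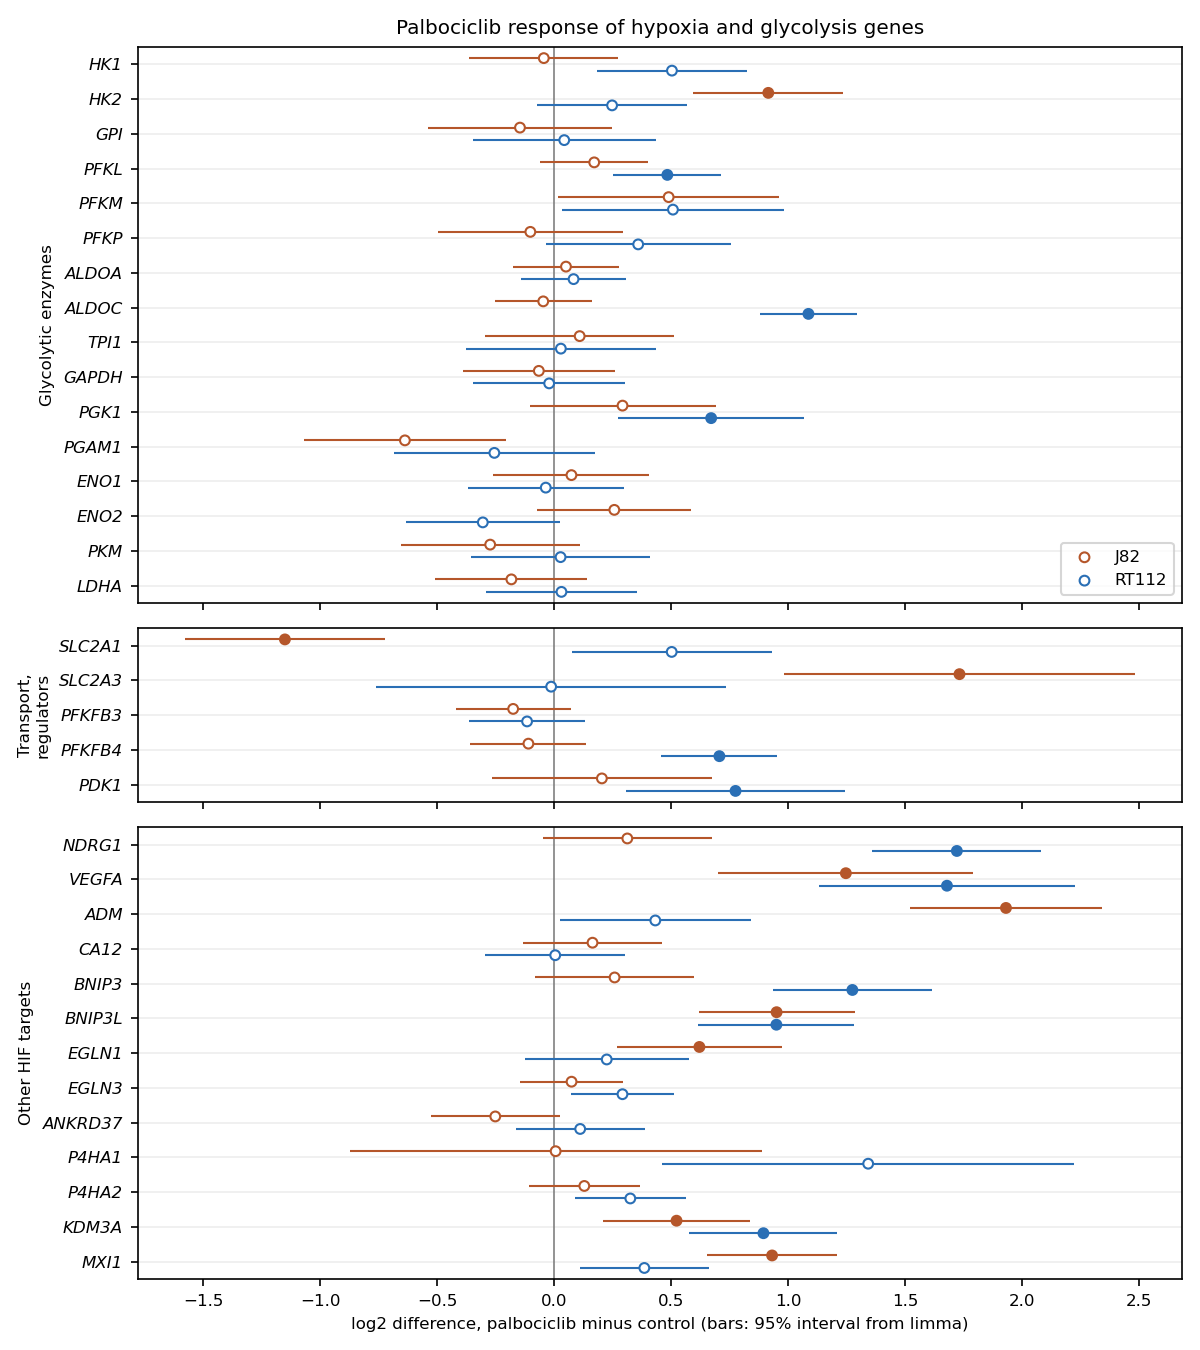
Log2 difference of each of the 34 genes, palbociclib minus control, in J82 (orange) and RT112 (blue), with genes down the page by role. Points are estimates from 3 arrays against 3, bars are 95% intervals from limma, and filled points passed an adjusted p of 0.05. Filled points lie right of 0 except SLC2A1 in J82 at -1.15.

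Among the 13 HIF targets outside glucose metabolism, 6 rose in J82 and 5 in RT112, and none fell in either line (limma, with 0 lower at an unadjusted p under 0.05 in both). Their median log2 difference was 0.31 in J82 and 0.43 in RT112. In J82 46.2% of the 13 thus rose, beside 5.4% of all genes and 9.71% of those above the median level. In RT112 38.5% rose, beside 4.95% and 8.75%. At an unadjusted p under 0.05 limma had 6.31% of all genes lower in J82 and 6.65% in RT112. The members shared by both lines were a growth factor, a mitophagy receptor and a histone demethylase.

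VEGFA, the growth factor that drives new vessels, read 8.20, 8.42 and 8.87 in palbociclib-treated J82 cells, against 7.00, 7.26 and 7.50 in J82 controls. In RT112 it read 9.29, 10.43 and 10.10 in palbociclib-treated RT112 cells, against 8.22, 8.23 and 8.34 in RT112 controls. The groups did not overlap in either line, and VEGFA rose by 1.25 ± 0.25 in J82 (SE, n = 3 per group, limma adjusted p = 0.00746) and by 1.68 ± 0.25 in RT112 (limma adjusted p = 0.000701). Without RT112 palbociclib replicate 1, the lowest treated array, the RT112 difference was 2.00.

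BNIP3L and BNIP3 encode related receptors of the outer mitochondrial membrane that recruit the autophagy machinery. BNIP3L read 10.06, 9.94 and 10.10 in palbociclib-treated J82 cells, against 9.13, 9.15 and 8.97 in J82 controls. It read 8.94, 9.12 and 9.45 in palbociclib-treated RT112 cells, against 8.31, 8.04 and 8.31 in RT112 controls. Every treated array of a line lay above every control of that line, and the rise was 0.95 ± 0.15 in J82 (limma adjusted p = 0.00183) and 0.95 ± 0.15 in RT112 (limma adjusted p = 0.00135). BNIP3 read 7.85, 7.87 and 8.33 in palbociclib-treated RT112 cells, against 6.95, 6.48 and 6.79 in RT112 controls, and rose by 1.27 ± 0.16 in that line (limma adjusted p = 0.000113). In J82 it read 8.19, 8.04 and 8.18 with palbociclib and 7.81, 7.97 and 7.85 without, groups that do not overlap, but its difference of 0.26 did not pass (limma adjusted p = 0.448).

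KDM3A, a histone H3 lysine demethylase whose activity needs oxygen, read 7.14, 7.48 and 7.49 in palbociclib-treated J82 cells, against 6.73, 6.91 and 6.90 in J82 controls. In RT112 its levels were 7.63, 8.02 and 8.03 with palbociclib and 7.05, 6.85 and 7.10 without. The treated arrays lay above the controls in both lines, by 0.52 ± 0.15 in J82 (limma adjusted p = 0.0431) and 0.89 ± 0.15 in RT112 (limma adjusted p = 0.00144). The J82 call was lost without J82 control replicate 1 (0.47), 2 (0.55) or 3 (0.55), without J82 palbociclib replicate 2 (0.47) or 3 (0.46), and without RT112 control replicate 1, 2 or 3 or RT112 palbociclib replicate 2, which leave the J82 difference at 0.52. It was also lost with J82 fitted alone, with every deposited row tested and when all arrays were set to a common median (0.48).

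The 3 further rises of J82 among these targets were in ADM, MXI1 and EGLN1. ADM, the precursor of the vasodilator peptide adrenomedullin, read 11.21, 11.37 and 11.58 in palbociclib-treated J82 cells, against 9.15, 9.57 and 9.65 in J82 controls. In RT112 the levels were 6.48, 6.84 and 7.08 with palbociclib and 6.48, 6.11 and 6.51 without, and the groups overlapped. ADM rose by 1.93 ± 0.19 in J82 (limma adjusted p = 3.7e-05), and its RT112 difference was 0.43 ± 0.19 (limma adjusted p = 0.235). MXI1, a MAX partner that opposes MYC, read 7.35, 7.82 and 7.50 in palbociclib-treated J82 cells, against 6.62, 6.63 and 6.61 in J82 controls. Its J82 controls were nearly equal, and it rose by 0.93 ± 0.13 (limma adjusted p = 0.000582). RT112 arrays read 6.73, 6.62 and 6.67 with palbociclib and 6.34, 6.14 and 6.39 without, also without overlap, a difference of 0.39 ± 0.13 (limma adjusted p = 0.091) that passed without J82 palbociclib replicate 2. EGLN1, the main prolyl hydroxylase that marks HIF for destruction, read 6.90, 7.00 and 7.42 in palbociclib-treated J82 cells, against 6.54, 6.24 and 6.67 in J82 controls, and rose by 0.62 ± 0.16 (limma adjusted p = 0.031). This call was lost without J82 control replicate 1 (0.65) or 2 (0.50), without J82 palbociclib replicate 2 (0.67) or 3 (0.47), with J82 fitted alone, with array weights and with every deposited row tested. In RT112 EGLN1 read 6.74, 6.44 and 6.79 and, in controls, 6.61, 6.37 and 6.31, which overlap.

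NDRG1, a stress-responsive gene widely used as a marker of hypoxia, had the largest difference of the 34 genes in RT112 with all arrays in, and VEGFA had it without palbociclib replicate 1. It read 9.50, 9.81 and 10.04 in palbociclib-treated RT112 cells, against 8.20, 8.04 and 7.94 in RT112 controls, with a gap of more than 1 log2 unit between the groups. The rise was 1.72 ± 0.17 (limma adjusted p = 1.14e-05) and 1.86 without RT112 palbociclib replicate 1. J82 arrays read 8.92, 8.63 and 9.12 with palbociclib and 8.63, 8.60 and 8.51 without, all treated arrays but 1 lying above the controls, for a difference of 0.31 ± 0.17 (limma adjusted p = 0.354).

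The 5 other targets passed in neither line. P4HA1, a catalytic subunit of collagen prolyl hydroxylase, read 8.49, 10.05 and 9.74 in palbociclib-treated RT112 cells, against 7.81, 8.06 and 8.38 in RT112 controls. The groups did not overlap, but the treated arrays were far apart, and the difference of 1.34 ± 0.41 did not pass (limma adjusted p = 0.0621). Without RT112 palbociclib replicate 1 it was 1.81 and passed (limma adjusted p = 0.0114). For its paralogue P4HA2 the RT112 difference was 0.33, with a 95% interval of 0.09 to 0.56 and no overlap of the groups, and the J82 difference was 0.13. EGLN3, a HIF prolyl hydroxylase whose own gene HIF induces, differed by 0.29 in RT112 and 0.07 in J82, at levels near or below the array medians. ANKRD37, an ankyrin repeat protein, differed by -0.25 in J82 (95% interval -0.53 to 0.02) and 0.11 in RT112. The carbonic anhydrase CA12 was near the array medians in all groups, where the background limits any difference, and differed by 0.16 in J82.

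Promoter windows give the sequence context of these genes. RefSeq windows on GRCh38.p14, from 250 bases before to 50 after an annotated start, were at hand for 30 of the 34 genes in 55 windows. The HIF core (ACGTG or GCGTG on either strand, counted at each position, so that CACGTG, which holds the core on both strands, counts 2 times) was found in 37 of the 55 windows, or 67.3%, beside 48.4% of all 35116 windows of the same length. A gene may have several windows, and some of these overlap. By gene, 27 of the 30 had the core in any window, or 90.0%, beside 52.4% of all 27305 genes. The 30 genes had more windows per gene (55 for 30) than all genes (35116 for 27305), which gives more chances of a match by gene. The genes were chosen by name for the hypoxia response and glycolysis, so these shares are no test of HIF. A match describes letters, not a bound site. The first window below belongs to KDM3A, which passed in both lines, and the others, chosen after their values were seen, to ALDOC and BNIP3, which passed in RT112, and ADM, which passed in J82. Capitals mark the core, 5′ to 3′ along the gene: the windows are chr2:86441121-86441420 on the plus strand, chr17:28576846-28577145 on the minus strand, chr10:131981874-131982173 on the minus strand and chr11:10304823-10305122 on the plus strand.
KDM3A: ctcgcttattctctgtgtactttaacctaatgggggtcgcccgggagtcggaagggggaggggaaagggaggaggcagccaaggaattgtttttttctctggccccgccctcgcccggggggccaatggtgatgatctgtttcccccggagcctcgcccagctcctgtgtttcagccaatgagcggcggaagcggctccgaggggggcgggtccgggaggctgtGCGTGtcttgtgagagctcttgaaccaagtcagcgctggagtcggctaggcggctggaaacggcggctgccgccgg
ALDOC: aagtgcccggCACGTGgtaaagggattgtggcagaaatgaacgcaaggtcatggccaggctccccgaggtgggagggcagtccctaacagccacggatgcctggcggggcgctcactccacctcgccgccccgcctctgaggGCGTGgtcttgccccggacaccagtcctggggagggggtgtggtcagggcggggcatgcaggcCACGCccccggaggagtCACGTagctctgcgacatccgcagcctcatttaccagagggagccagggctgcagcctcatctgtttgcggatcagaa
BNIP3: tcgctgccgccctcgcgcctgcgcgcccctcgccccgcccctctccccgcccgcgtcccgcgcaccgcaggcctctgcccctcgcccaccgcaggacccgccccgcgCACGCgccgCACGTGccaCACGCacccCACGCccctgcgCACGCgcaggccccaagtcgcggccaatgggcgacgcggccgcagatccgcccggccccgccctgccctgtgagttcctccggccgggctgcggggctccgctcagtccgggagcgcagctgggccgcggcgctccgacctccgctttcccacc
ADM: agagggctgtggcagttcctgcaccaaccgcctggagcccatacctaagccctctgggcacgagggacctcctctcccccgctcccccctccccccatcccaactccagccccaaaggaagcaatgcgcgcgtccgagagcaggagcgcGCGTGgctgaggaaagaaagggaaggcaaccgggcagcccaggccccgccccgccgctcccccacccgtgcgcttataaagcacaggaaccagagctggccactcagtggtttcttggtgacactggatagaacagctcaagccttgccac
The core stands at 1 position in KDM3A, 5 in ALDOC, 6 in BNIP3 and 1 in ADM. The first window of LDHA held 6 and that of GAPDH 2, and LDHA, which passed in neither line, differed by -0.18 in J82 and 0.03 in RT112.

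Of the 5 genes of glucose transport and flux control, 1 rose and 1 fell in J82, and 2 rose and none fell in RT112 (limma, with 0 lower at an unadjusted p under 0.05). Over all genes 5.4% rose and 2.78% fell in J82, and 4.95% rose and 3.53% fell in RT112. At an unadjusted p under 0.05 limma had 6.65% of all genes lower in RT112. The J82 changes were both in glucose transporters and ran in opposite directions. SLC2A1, the widespread transporter GLUT1, read 8.08, 7.71 and 8.08 in palbociclib-treated J82 cells, against 8.87, 9.12 and 9.33 in J82 controls. The groups lay apart, and SLC2A1 fell by 1.15 ± 0.20 (limma adjusted p = 0.00271). In RT112 it read 12.03, 12.59 and 12.73 in palbociclib-treated RT112 cells, against 11.90, 11.92 and 12.02 in RT112 controls, above all controls by a small margin in replicate 1. That difference was 0.50 ± 0.20 (limma adjusted p = 0.169), and 0.71 without that replicate, when it passed (limma adjusted p = 0.0215).

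SLC2A3, the high-affinity transporter GLUT3, read 10.38, 10.46 and 10.93 in palbociclib-treated J82 cells, against 7.77, 9.24 and 9.56 in J82 controls. The controls spread over almost 2 log2 units but stayed below all treated arrays, and SLC2A3 rose by 1.73 ± 0.35 (limma adjusted p = 0.00702). With J82 fitted alone the call was lost, and without J82 control replicate 1, the lowest, the rise was 1.19. RT112 arrays, at 6.11, 5.70 and 5.45 with palbociclib and 5.71, 5.91 and 5.68 without, were near the array medians and overlapped, and the difference was -0.01 ± 0.35.

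PFKFB4, which makes and removes the sugar phosphate that activates phosphofructokinase, read 7.54, 7.73 and 7.62 in palbociclib-treated RT112 cells, against 6.93, 6.90 and 6.95 in RT112 controls. Treated arrays were all higher, by 0.71 ± 0.12 (limma adjusted p = 0.00138), whereas in J82 the groups of 6.83, 6.65 and 6.89 with palbociclib and 6.85, 6.82 and 7.03 without overlapped. Its paralogue PFKFB3 differed by -0.12 in RT112 (95% interval -0.36 to 0.13) and -0.18 in J82 (95% interval -0.42 to 0.07). PDK1, the kinase that shuts off pyruvate dehydrogenase and so keeps pyruvate out of the mitochondrial cycle, read 7.34, 8.27 and 8.29 in palbociclib-treated RT112 cells, against 7.01, 7.24 and 7.33 in RT112 controls. Replicate 1 only just exceeded the controls. The rise was 0.77 ± 0.22 (limma adjusted p = 0.0418), or 1.09 without that replicate (limma adjusted p = 0.000623). It lost the call without RT112 control replicate 1 (0.68), 2 (0.80) or 3 (0.84), without RT112 palbociclib replicate 2 (0.62) or 3 (0.61), without J82 control replicate 1, 2 or 3 or J82 palbociclib replicate 2, with RT112 fitted alone, with every deposited row tested, and with arrays set to a common median (0.74). Leaving out J82 arrays keeps the value at 0.77. In J82 PDK1 read 6.60, 6.91 and 7.03 with palbociclib and 6.51, 6.75 and 6.66 without, and these overlapped.

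Of the 16 glycolytic enzymes, 1 rose in J82 and 3 rose in RT112, and none fell in either line (limma, with 1 lower in J82 and 0 in RT112 at an unadjusted p under 0.05). Their median log2 difference was 0.003 in J82 and 0.06 in RT112. In J82 6.25% of the 16 thus rose, near the 5.4% of all genes and 9.71% of those above the median level. In RT112 18.8% rose, beside 4.95% and 8.75%. Without RT112 palbociclib replicate 1, 6 of the enzymes rose in RT112, beside 8.09% of all genes. In that fit 1 was lower at an unadjusted p under 0.05, and the median was 0.13. Those that passed with all arrays in encode a hexokinase, a phosphofructokinase subunit, an aldolase and a phosphoglycerate kinase.

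Hexokinase takes glucose into the pathway, and HK2 is its inducible form. HK2 read 6.41, 6.73 and 6.72 in palbociclib-treated J82 cells, against 5.39, 5.77 and 5.94 in J82 controls. The groups lay apart, with controls close to the array medians, where the background limits the size, and it rose by 0.92 ± 0.15 (limma adjusted p = 0.00182). In RT112 the levels of 6.11, 6.43 and 6.34 with palbociclib and 6.02, 5.98 and 6.13 without overlapped, with a difference of 0.25 ± 0.15 (limma adjusted p = 0.462). HK1, the constitutive form, differed by -0.04 in J82. In RT112 it read 7.72, 8.22 and 8.10 in palbociclib-treated RT112 cells, against 7.51, 7.51 and 7.50 in RT112 controls, without overlap, a difference of 0.50 ± 0.15 that did not pass (limma adjusted p = 0.0522) and did without RT112 palbociclib replicate 1 (0.65, limma adjusted p = 0.00727).

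The phosphofructokinase genes encode the liver, muscle and platelet subunits of the committed step. PFKL read 7.50, 7.52 and 7.58 in palbociclib-treated RT112 cells, against 7.09, 7.08 and 6.97 in RT112 controls, and rose by 0.48 ± 0.11 (limma adjusted p = 0.0115). All 3 treated arrays were close together above the controls, and the call was lost without RT112 control replicate 3 (0.45) or RT112 palbociclib replicate 3 (0.46), and with every deposited row tested. In J82 PFKL read 6.94, 6.85 and 7.08 with palbociclib and 6.74, 6.80 and 6.83 without, also apart, by 0.17 (limma adjusted p = 0.466). PFKM differed by 0.49 ± 0.22 in J82 and 0.51 ± 0.22 in RT112, and PFKP by -0.10 and 0.36. Neither passed, and in RT112 both passed without palbociclib replicate 1, at 0.77 and 0.56.

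ALDOC, the aldolase form best known from brain, read 6.62, 6.67 and 6.45 in palbociclib-treated RT112 cells, against 5.49, 5.59 and 5.40 in RT112 controls. Controls lay near the array medians and treated arrays about 1 log2 unit higher with no overlap. Because the controls are so dim, the true size of the rise is uncertain: it was 1.09 ± 0.10 (limma adjusted p = 4.78e-06). J82 arrays stayed near the medians at 5.15, 5.14 and 5.18 with palbociclib and 5.27, 5.16 and 5.18 without. The ubiquitous ALDOA differed by 0.08 in RT112 (95% interval -0.14 to 0.31) and 0.05 in J82 (95% interval -0.17 to 0.28).

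PGK1, the enzyme of the first step that yields ATP, read 10.60, 11.07 and 11.17 in palbociclib-treated RT112 cells, against 10.33, 10.09 and 10.41 in RT112 controls. The treated arrays were higher by 0.67 ± 0.18 (limma adjusted p = 0.0379), and by 0.84 without RT112 palbociclib replicate 1. This call was lost without RT112 control replicate 1 (0.70), 2 (0.58) or 3 (0.74), without RT112 palbociclib replicate 2 (0.61) or 3 (0.56), without J82 control replicate 2 or 3, which leave the value at 0.67, with RT112 fitted alone, with every deposited row tested, and with arrays set to a common median (0.63). J82 arrays of PGK1, 10.88, 11.33 and 11.16 with palbociclib and 10.83, 10.91 and 10.75 without, overlapped.

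The remaining enzymes passed in neither line. PGAM1, which moves the phosphate group of phosphoglycerate, had the lowest difference of the 16 in J82, -0.64 ± 0.20, with all treated arrays below the controls (limma adjusted p = 0.0707). GAPDH, often taken as a reference gene, differed by -0.07 in J82 (95% interval -0.39 to 0.26) and -0.02 in RT112 (95% interval -0.35 to 0.30). For LDHA, which turns pyruvate to lactate, the intervals were -0.51 to 0.14 in J82 and -0.29 to 0.36 in RT112, and its treated J82 arrays also lay below all J82 controls. Those of the enolase ENO1 were -0.26 to 0.41 and -0.37 to 0.30, and those of the pyruvate kinase PKM -0.66 to 0.11 and -0.36 to 0.41. GPI differed by -0.15 in J82 and 0.04 in RT112, TPI1 by 0.11 and 0.03, and the neuronal enolase ENO2 by 0.26 and -0.30. Several of these genes have processed pseudogenes, and whether their probes also read such copies was not tested.

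**Figure D2:**
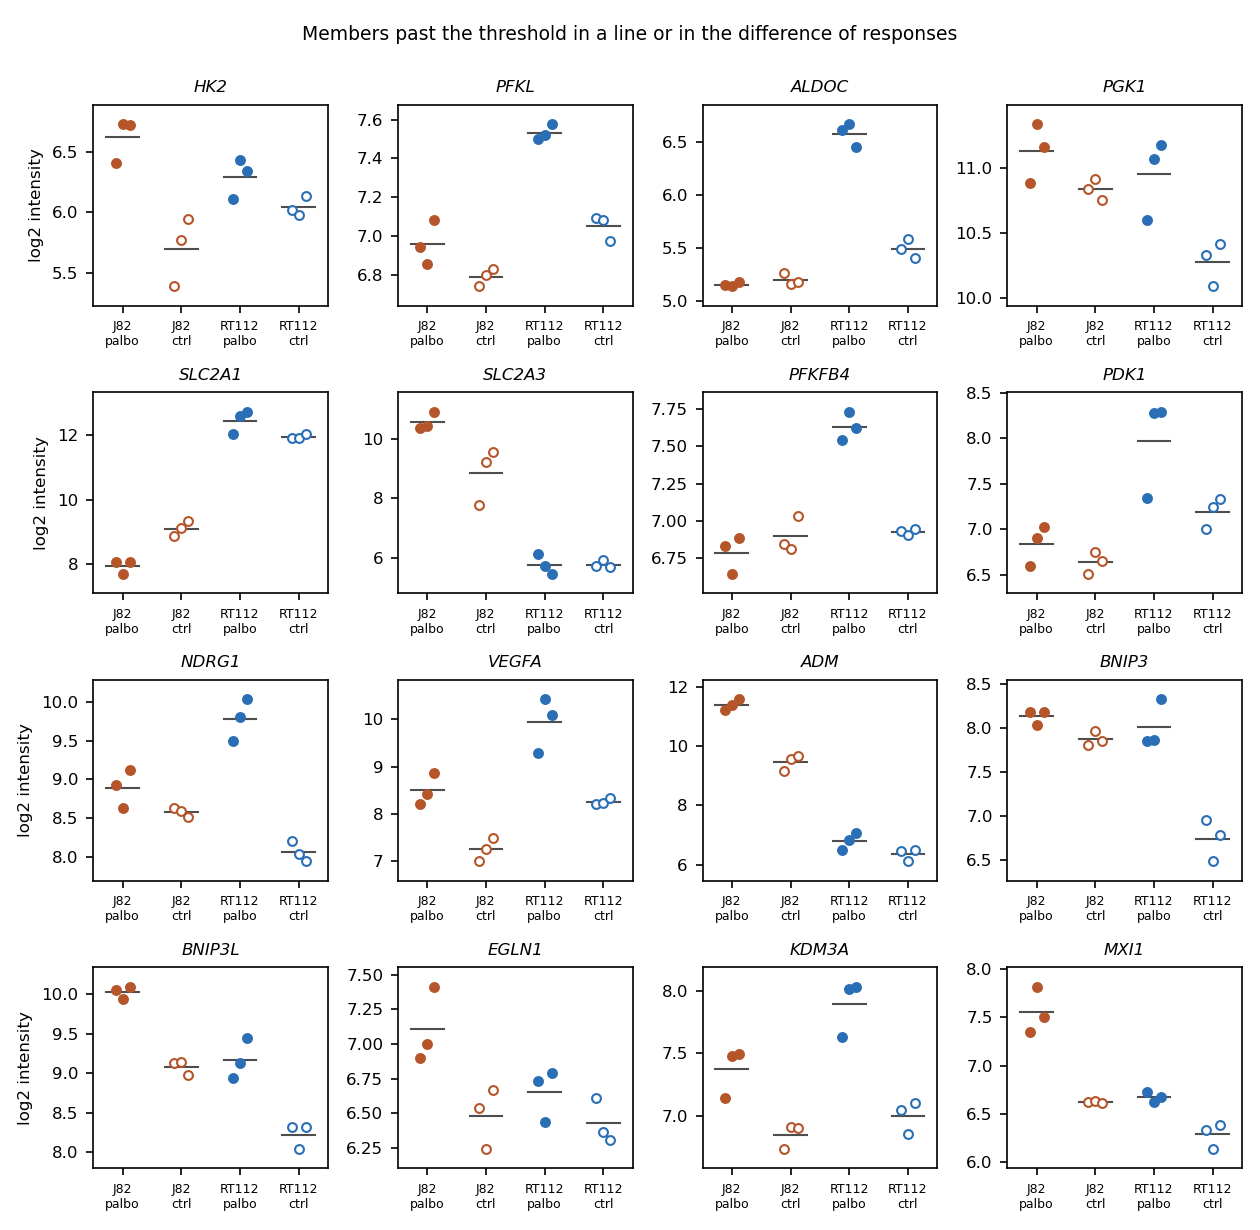
Log2 intensity (vertical axes, a scale of its own for each gene) on each of the 12 arrays for the 16 genes that passed in a line or in the difference of responses. Points are arrays, filled for palbociclib and open for control, orange for J82 and blue for RT112, and lines are group means. SLC2A1 is lower with palbociclib in J82, and BNIP3L and VEGFA are higher in both lines.

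Whether the lines differed in response was tested as the RT112 difference minus the J82 difference. Of the 34 genes 6 passed, 5 higher and 1 lower, beside 4.57% of all genes (1.83% higher and 2.74% lower) and 8.27% of those above the median level (3.2% higher and 5.07% lower). The response was larger in J82 for ADM. For SLC2A1 it was a fall in J82, and the RT112 difference, above 0, did not pass. For the rest it was larger in RT112.

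For SLC2A1 the responses differed by 1.65 ± 0.28 (limma adjusted p = 0.00309), its J82 response being a fall. NDRG1 differed by 1.41 ± 0.24 (limma adjusted p = 0.00292) and ALDOC by 1.13 ± 0.14 (limma adjusted p = 0.00018). PFKFB4 differed by 0.82 ± 0.16 (limma adjusted p = 0.00966), a call lost with every deposited row tested. BNIP3 differed by 1.02 ± 0.22 (limma adjusted p = 0.0169), a call lost without J82 control replicate 2 (0.97), without RT112 control replicate 2 (0.89), with every deposited row tested and with arrays set to a common median (1.03). ADM differed by -1.50 ± 0.27 (limma adjusted p = 0.0046), so its response was larger in J82.

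BNIP3L gave a difference close to 0 between the lines, with a 95% interval of -0.47 to 0.47, and VEGFA gave 0.43 with an interval of -0.34 to 1.20. SLC2A3 had the difference farthest from 0, -1.74 ± 0.49, and did not pass (limma adjusted p = 0.0645). It did pass without J82 control replicate 1 (-1.20) and without J82 control replicate 3 (-2.10). It also passed with replicate numbers as a block, with only bright genes and with array weights, and not in the other 17 of 22 alternatives. Without RT112 palbociclib replicate 1 the 6 calls held and HK1 (0.70) and PDK1 (0.89) passed as well, beside 6.75% of all genes (3.2% higher and 3.55% lower).

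**Figure D3:**
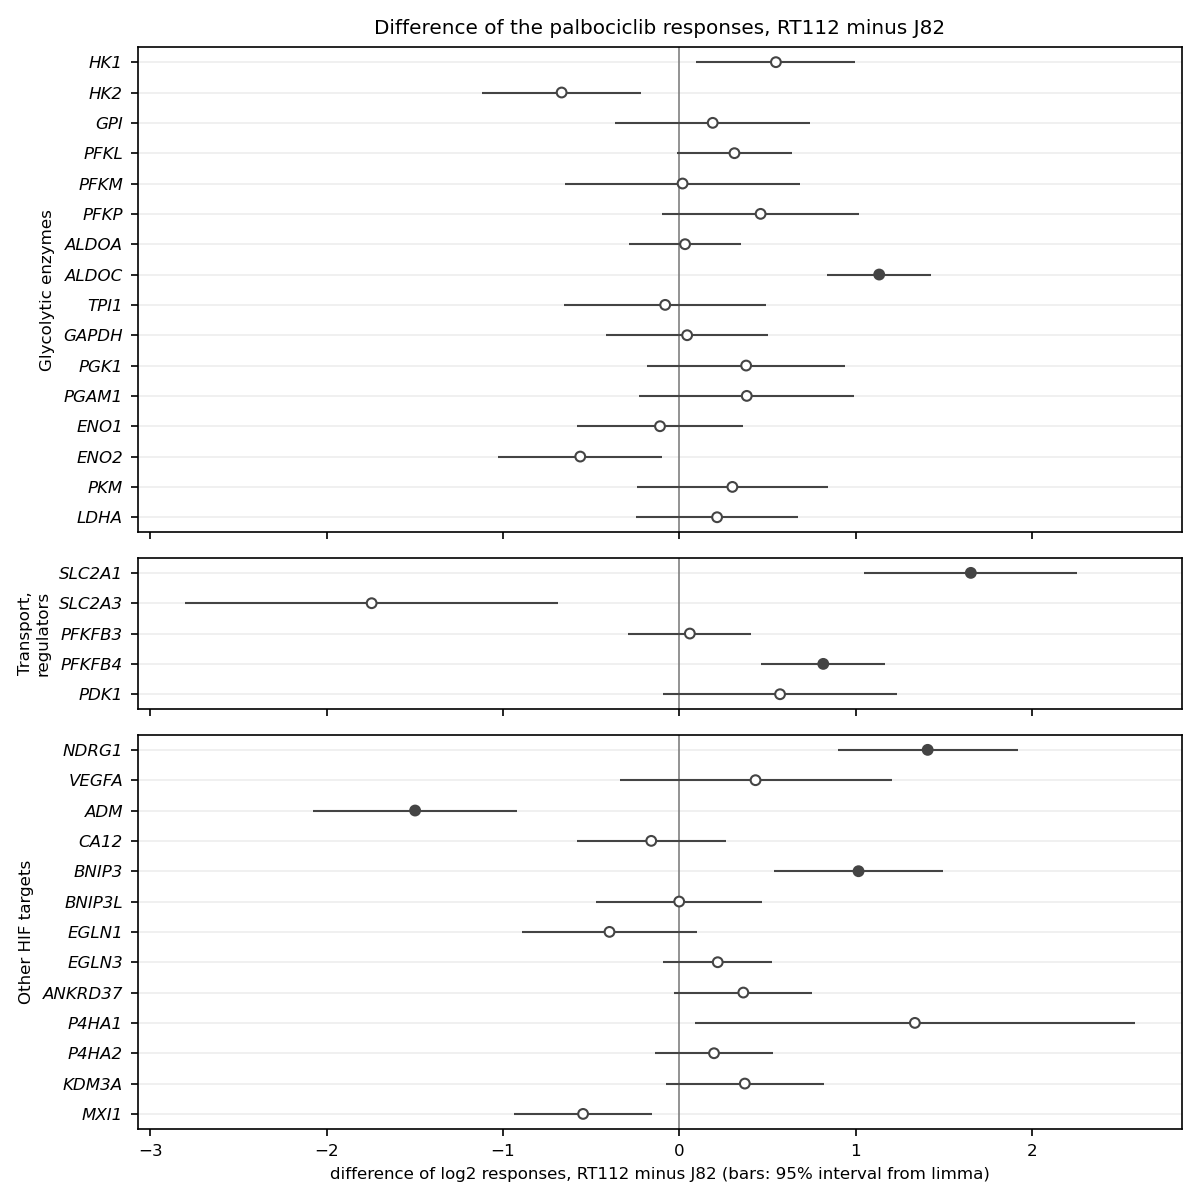
Difference of the log2 responses, RT112 minus J82, for the 34 genes by role. Points are estimates over 12 arrays, bars are 95% intervals from limma, and the 6 filled points passed an adjusted p of 0.05. ADM lies left of 0 at -1.50 and SLC2A1 farthest right at 1.65.

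Untreated RT112 differed from untreated J82 in 17 of the 34 genes, 8 higher and 9 lower, beside 27.5% of all genes (12.8% higher and 14.7% lower) and 46.2% of those above the median level (20.7% higher and 25.5% lower). That share is near the background of bright genes. All RT112 controls lay above all J82 controls in 11 of the 34 and below in 14, beside 29.2% and 22.4% of all genes and 51.6% in either direction. The 6 largest differences were in both transporters, ADM, ENO2, ANKRD37 and BNIP3.

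SLC2A1 was higher in RT112, at 11.90, 11.92 and 12.02 against 8.87, 9.12 and 9.33 in J82, by 2.84 ± 0.20 (limma adjusted p = 6.53e-08). SLC2A3 was lower, at 5.71, 5.91 and 5.68 in RT112 against 7.77, 9.24 and 9.56 in J82, a difference of -3.09 ± 0.35 (limma adjusted p = 8.33e-06). The lines thus differed in opposite directions at the 2 transporters, with no overlap at either.

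ADM read 6.48, 6.11 and 6.51 in RT112 and 9.15, 9.57 and 9.65 in J82, a difference of -3.09 ± 0.19 (limma adjusted p = 1.82e-08). ENO2, the enolase of neurons, read 6.41, 6.30 and 6.32 in RT112 and 7.28, 7.65 and 7.78 in J82, a difference of -1.23. ANKRD37 read 5.63, 5.73 and 5.61 and 7.01, 6.81 and 6.73 in the same order, differing by -1.20. None of these overlapped between the lines. BNIP3, at 6.95, 6.48 and 6.79 in RT112 and 7.81, 7.97 and 7.85 in J82, differed by -1.13. Among the 11 other genes that passed, VEGFA (1.01), P4HA2 (0.90), EGLN3 (0.86), PFKFB3 (0.71), PGAM1, HK1 and ALDOC were higher in RT112 and BNIP3L (-0.86), GPI (-0.79), PGK1 and NDRG1 were lower. The calls of ALDOC, PGAM1, PGK1 and NDRG1 were lost on leaving out any of several single arrays. These controls are the same arrays that the responses are measured from.

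**Figure D4:**
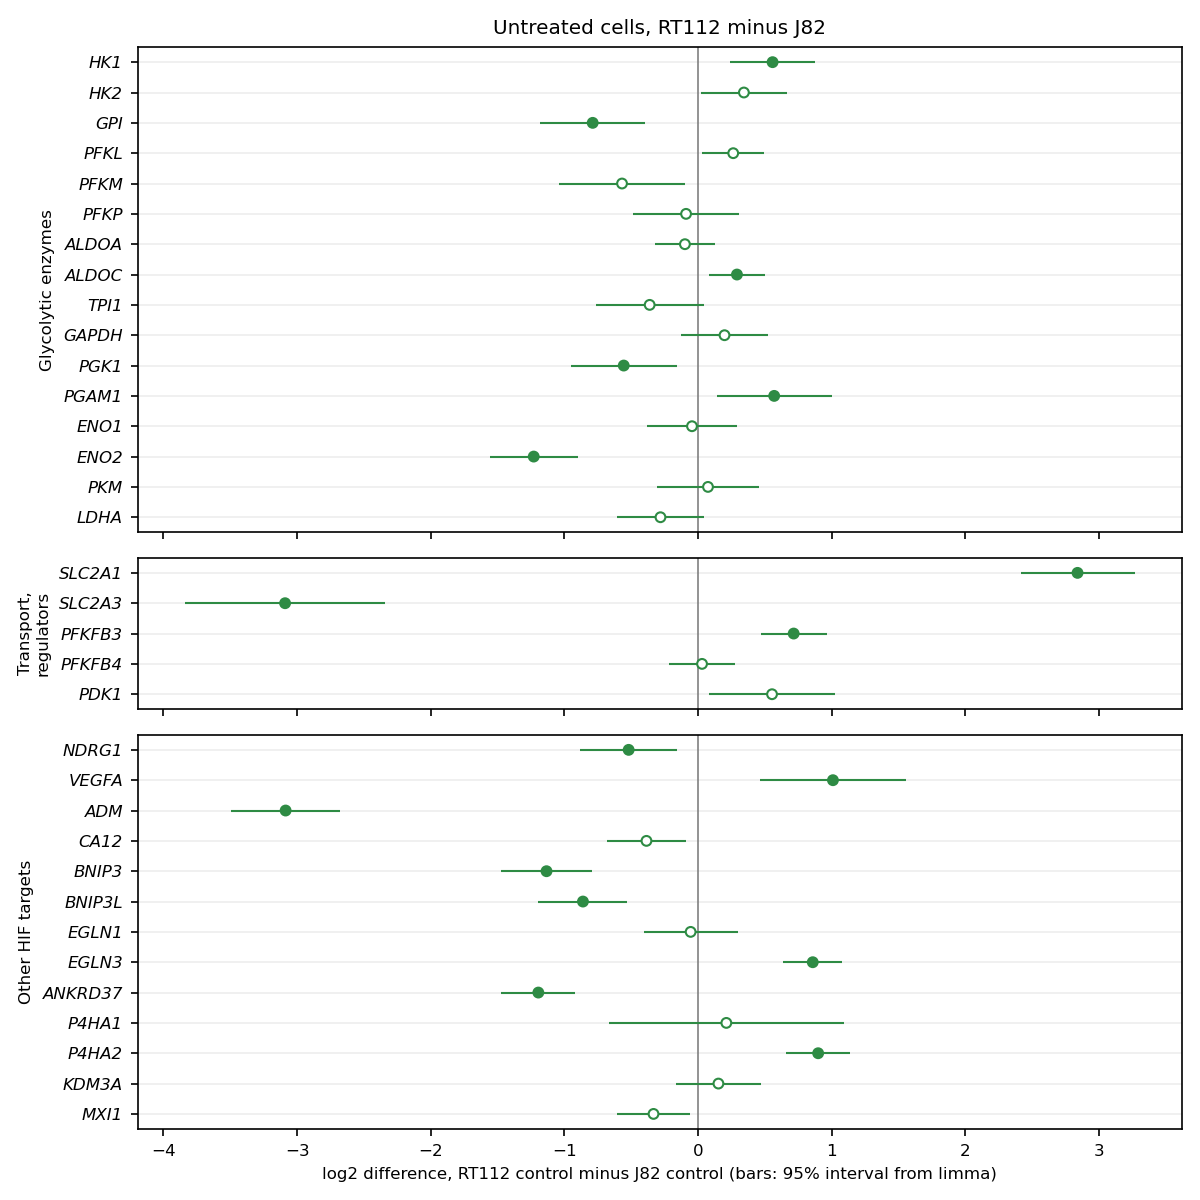
Log2 difference between untreated lines, RT112 controls minus J82 controls, for the 34 genes by role. Points are estimates from 3 arrays a line, bars are 95% intervals from limma, and the 17 filled points passed an adjusted p of 0.05. SLC2A1 lies at 2.84 and SLC2A3 at -3.09.

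The rest of the pathway was read from 3 lists that hold none of the 34 genes. Among 15 measured genes of HIF subunits, partners and regulators (17 listed), 1 rose and 1 fell in J82 and 1 rose in RT112. Of these 15 genes 13.3% thus passed in J82, beside 8.18% of all genes and 14.8% of those above the median level. In RT112 6.67% passed, beside 8.48% and 15.3%. In RT112 2 rose without palbociclib replicate 1, beside 8.09% of all genes. They were ARNT and HIF1AN, which encodes an asparagine hydroxylase that inhibits HIF (0.64, limma adjusted p = 0.0284). EPAS1, which encodes the alpha subunit of the second HIF, read 9.95, 9.01 and 9.80 in palbociclib-treated J82 cells, against 7.88, 7.31 and 7.56 in J82 controls. It rose by 2.00 ± 0.23 in J82 (limma adjusted p = 0.000108), with no overlap, and its RT112 response was lower by 1.77 (difference -1.77 ± 0.32, limma adjusted p = 0.00483). ARNT2, a paralogue of the common partner, fell by 0.89 in J82 (limma adjusted p = 0.000199), and ARNT rose by 0.55 in RT112 (limma adjusted p = 0.0371). HIF1A, the best known alpha subunit, differed by 0.37 ± 0.20 in J82 and 0.38 ± 0.20 in RT112 and passed in neither (limma adjusted p = 0.359 and 0.363).

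Of 37 measured further HIF targets (40 listed), 4 rose and 1 fell in J82, and 9 rose and none fell in RT112 (limma, with 0 lower in RT112 at an unadjusted p under 0.05). Over all genes 5.4% rose in J82 and 4.95% in RT112, and among genes above the median level 9.71% and 8.75%. The J82 share of this list, 10.8%, is above that of all genes and near that of the bright genes. In RT112 24.3% of the list rose. Not all genes of the list lie above the median level. In J82 the stanniocalcin gene STC2 rose by 1.25, the repressor BHLHE40 by 0.89 and DDIT4, an inhibitor of the growth kinase mTOR, by 0.68, and the collagen lysyl hydroxylase PLOD2 fell by 0.85. In RT112 DDIT4 rose by 1.89 ± 0.15, ERRFI1, an inhibitor of the EGF receptor, by 1.84 ± 0.28, the histone demethylase KDM5B by 1.60 ± 0.17 and the glycogen synthase GYS1 by 1.04 ± 0.17. BHLHE40 rose there too, by 0.79. The median difference of the list was 0.13 in J82 and 0.22 in RT112.

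Of 45 measured further genes of glucose metabolism (51 listed), 6 rose and none fell in J82 (limma, with 1 lower at an unadjusted p under 0.05), and none passed in RT112 (limma, with 5 higher and 4 lower at an unadjusted p under 0.05, or 11.1% and 8.89%, close to the 11.8% and 6.65% of all genes). In J82 13.3% of the list rose, beside 5.4% of all genes and 9.71% of those above the median level. Without RT112 palbociclib replicate 1, 2 rose and 1 fell in RT112, beside 8.09% higher and 5.11% lower over all genes. The J82 rises were led by PCK2, the mitochondrial carboxykinase (0.89), GPD2, the mitochondrial glycerol phosphate dehydrogenase (0.80), PDP1, the phosphatase that reverses PDK1 (0.71), and PFKFB2 (0.66). GPD2 was -0.58 in RT112, and its responses differed by -1.38 ± 0.29 (limma adjusted p = 0.0139).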

How the data were processed

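Total RNA of palbociclib-treated and PBS-treated cells was labelled with biotin and read on Affymetrix whole-transcript arrays, per the labels. The deposited table holds log2 intensities for 70523 probe sets on 18 arrays. The submitters' processing notes name RMA and Affymetrix Expression Console, with no versions. For the genome build, none is named there. The table carries no detection calls, and the number of arrays limits the precision.

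Groups follow the line and treatment in the labels. Among 67528 transcript clusters, 23781 carried 1 symbol in the platform annotation. For each symbol the row with the highest mean over the 12 arrays of J82 and RT112 was kept, which left 22465 genes. A model of 4 group means was fitted to them using limma 3.58.1 (R 4.3.3), with a trend of variance on level and 8 residual degrees of freedom, so each standard error (SE) rests on both lines. P-values were adjusted over all genes by Benjamini and Hochberg, and the fit was tested on simulated data. Replicate numbers were not treated as pairs in the main fit. Same-numbered arrays of a line deviated from their group means with correlations from -0.193 to 0.188. Of 12 arrays, 8 correlated best with their own number, and a fit with these numbers as a block is among the alternatives.

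The members, lists, tests and naming rule were chosen with earlier results of these data known. By the rule, every array is given for members past the threshold in a line or in the difference of responses and for the 6 largest differences between untreated lines, and up to 4 genes are named per further list and line. HK1, P4HA1, BHLHE40 in RT112 and EPAS1 by array were added after their values were seen. Promoter sequences are RefSeq's (GRCh38.p14). Alternatives were replicate numbers as a block, a common median for all arrays, repeated quantile normalization, only bright genes, averaging a gene's rows, testing every deposited row, no trend, robust priors, array weights, separate fits per line, a minimum log2 difference of 1, and leaving out each array.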

Additional observations from a re-analysis of the deposited data

Results flagged for a closer look

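The responses of 6 genes to palbociclib differed between the lines in the test of the difference itself, RT112 minus J82 (limma, adjusted over all genes, 12 arrays). They were 1.65 for SLC2A1, 1.41 for NDRG1, 1.13 for ALDOC, 1.02 for BNIP3, 0.82 for PFKFB4 and -1.50 for ADM. In SLC2A1 all treated RT112 arrays lay above their controls, as in 14.5% of all genes, and all treated J82 arrays below theirs, as in 7.82%. Its RT112 difference of 0.50 did not pass (limma adjusted p = 0.169), and treated replicate 1 read 12.03 against 12.02 in the highest control. Groups of 3 arrays were not searched for single outlying values.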

How the results depend on the processing

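Of the 34 genes, the number past the threshold was 9 in J82, 10 in RT112, 6 in the difference of responses and 17 between untreated lines. Requiring a log2 difference of 1 or more turned these into 4, 4, 5 and 7. With array weights they became 8, 21, 15 and 23, the array that stood apart getting a weight of 0.113. Leaving out each array in turn gave 7 to 10 in J82, 7 to 15 in RT112, 5 to 8 in the difference and 13 to 21 between untreated lines. The other alternatives moved no count by more than 1.5 times, and no gene that passed changed sign under any alternative. Over all genes, J82 calls numbered 1837, against 1046 with every deposited row tested, 1045 with J82 fitted alone, 535 with the minimum difference and 1147 without J82 control replicate 3. RT112 calls numbered 1905, against 1015 with every row tested, 5780 with weights, 595 with the minimum difference, 1131 to 1210 without any 1 RT112 array other than palbociclib replicate 1, and 2965 without that array. Calls in the difference numbered 1027, against 520 with every row tested, 1625 after repeated quantile normalization and 2384 with weights. Calls between untreated lines numbered 6183, against 2593 with the minimum difference. Same-numbered arrays of a line deviated from their group means with correlations from -0.193 to 0.188 across genes, and 8 of 12 arrays correlated best with their own number. With replicate numbers as a block the counts were 9, 11, 8 and 18, and SLC2A3 passed in the difference of responses at -1.74. A group mean under 6, near the array medians, was found in 8 genes, and signal near the background limits the differences that use such a group. It was in J82 for HK2, PFKFB3 and P4HA2, and in RT112 for SLC2A3 and ANKRD37. For ALDOC, CA12 and EGLN3 it was in both lines.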

Other observations

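P4HA1 varied widely within both J82 groups. Its levels were 7.18, 7.99 and 8.46 with palbociclib and 7.13, 8.26 and 8.23 without, so that replicate 1 was the lowest array of both groups, and the difference of 0.01 had a 95% interval of -0.87 to 0.89. Replicate 1 was the lowest array of both J82 groups in 11 of the 34 genes, among them HK2, SLC2A3, VEGFA, ADM and KDM3A, which rose in J82. Replicate 2 was so in 6 and replicate 3 in 0. The replicate numbers are not stated to mark a shared day or batch.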
